A study of Mus musculus with 66 samples.

Results

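Poly(A) site usage after knockdown of Paf1 was compared directly with usage after knockdown of Cdc73 in mouse C2C12 myoblasts. The members are poly(A) sites on the sense strand of a gene that hold, as the mean over the 4 libraries compared, at least 5% of that gene's reads, in genes that have 2 or more such sites and average 20 or more reads over these libraries. This left 18413 of the 59578 sites in the deposited table, in 6117 genes, of which 14445 lie in the 3'-most exon, 3783 in introns and 185 in internal exons. The comparison uses 4 of the 7 cultures measured by 3'READS.

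Paf1C is a complex of proteins that travels with RNA polymerase II and takes part in elongation, histone modification and the formation of transcript 3' ends, and Paf1 and Cdc73 are subunits of it. Most genes have several poly(A) sites. Use of a site in an intron or internal exon cuts the coding sequence short (CDS-APA), while use of a proximal site in the 3'-most exon shortens the 3'UTR (3'UTR-APA).

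3'READS sequences the 3' ends of polyadenylated RNA, and reads that carry untemplated T bases from the poly(A) tail (PASS reads) mark the cleavage site. C2C12 is an immortalised mouse muscle precursor line, so results describe 1 cell line. For 48 h, cells carried 50 nM of siRNA aimed at Paf1 (siPaf1), at Cdc73 (siCdc73) or, in siCtrl, of a control siRNA, in batch 1 and again in batch 2 (n = 2 per group). An siRNA against Ski8 (siSki8), another subunit, was used at the same dose and time in batch 2 alone and is given as a value without a replicate.

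The siPaf1 libraries held 7816867 PASS reads in batch 1 and 13403708 in batch 2. The siCdc73 libraries held 5302728 and 14340927. The siCtrl libraries held 7385518 and 9804681, and the siSki8 library 8296501. Batch 1 of siCdc73 was thus the shallowest, at well under the depth of batch 2 of the same group.

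Of the 6 myoblast markers listed, 5 or 6 had reads in each library, with Des, a muscle intermediate filament protein, the most abundant. Their summed CPM (counts scaled to the library total) was 1935 and 1990 in siPaf1, 1134 and 795 in siCdc73, and 1656 and 1677 in siCtrl. Myod1 (0 to 8 reads) and Pax7 (0 to 9 reads) were at or near 0 in the 3'READS libraries, while Myf5, Cdh15 and Itga7 were read in all of them. Differentiation markers were higher in batch 2 than in batch 1, at 204 and 542 CPM in siPaf1, 77.1 and 289 in siCdc73, and 118 and 284 in siCtrl.

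The siPaf1 library of batch 2 stood apart. In 252 genes its level was more than 20 times that of any other library, and these genes took 137428 reads, 1.03% of its total. The testis markers Prm1, Prm2, Tnp1, Ddx4 and Dazl were all read there, with a summed level of 2208 CPM, against 0 in siPaf1 batch 1, 0 in siCdc73 batch 1, 29.6 in siCdc73 batch 2, 3.06 in siCtrl batch 2 and 2.53 in siSki8. Prm1, a sperm protamine, was the most abundant, with 21481 reads there and 284 in siCdc73 batch 2. RNA-seq of the same groups lists 108 of the 252 genes, and their summed level there was 28.96 CPM in siPaf1 batch 2 and 17.5 to 23.4 in the other libraries.

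Among the 6117 genes compared, 8 belong to those 252, and 1 site that passed the test lies in them. Without all genes that stand out this way in 1 library, 234 sites in place of 235 were higher in siPaf1 and 245 in place of 245 in siCdc73. This removes only genes that stand out and says nothing of shares in other genes, where reads from another source could not be told apart. Whether reads of another sample entered this library was not tested. Neuron markers also differed by batch, with Stmn2 at 164 and 2447 reads in siPaf1, 59 and 1541 in siCdc73 and 40 and 486 in siCtrl. Summed levels of the neuron list were 23.8 and 205 CPM in siPaf1, 12.4 and 111 in siCdc73, 9.75 and 93.4 in siCtrl and 178 in siSki8, so they differed by batch and between the knockdowns within each batch. RNA-seq gave 464 and 1566 CPM of this list in siPaf1, 196 and 489 in siCdc73 and 116 and 215 in siCtrl. The part of these reads in the site differences was not tested.

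Other lists of cell markers were low in 3'READS. Erythroid markers had 0 reads, liver markers 0 or 1, and pluripotency markers 0 to 8, all Nanog. Leukocyte markers summed to 2.77 to 9.08 CPM over the 7 libraries, led by Cd68, with Cd3e, Cd3g and Laptm5 at 0. Adipocyte markers summed to 0.139 to 1.22 CPM, led by Plin1. Endothelial markers summed to 3.45 and 17.9 CPM in siPaf1, 4.53 and 6.76 in siCdc73 and 21.1 and 30.7 in siCtrl, mostly Kdr. Epithelial markers, with Krt8 the most abundant and Epcam at 0, summed to 2.17 and 1.87 CPM in siPaf1, 9.24 and 16.5 in siCdc73 and 0.542 and 0.102 in siCtrl. In RNA-seq, epithelial markers gave 19.8 and 54.3 CPM in siCdc73, 1.46 and 2.503 in siPaf1 and 0.156 and 1.03 in siCtrl. Leukocyte markers gave 4.91 and 3.08 CPM in siCdc73, 2.44 and 1.43 in siPaf1 and 0.782 and 0.686 in siCtrl. Erythroid markers had 127 reads (35.6 CPM) in siCdc73 batch 2 alone, against 2.53 CPM in siCdc73 batch 1, 2.44 and 1.43 in siPaf1, 0.156 and 4.63 in siCtrl and 2.94 in siSki8.

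The sites on which the comparison turns are shown by the last 30 reference bases up to the mapped end of the RNA, read 5' to 3' on the gene's strand (mm9, which is NCBIM37). Capitals mark 1 signal where these bases hold any, the AATAAA nearest the end or, with none, the ATTAAA nearest the end. They are the intron sites of Fn1, Zfhx4 and Pcbp2, examples chosen from the other named sites in each direction, the last-exon pair of Mtpn, and the Paf1 end that lies inside the siRNA target.
Fn1 intron 13 site (chr1:71678260-71678289, minus strand): atttgcaatgtcattaaaATTAAAatcaca
Fn1 intron 26 site (chr1:71658705-71658734, minus strand): gcaagagtgagaaacatggagatcagcgca
Fn1 intron 41 site (chr1:71639837-71639866, minus strand): ataaccgtcAATAAAatgtcttctcctttt
Zfhx4 intron 2 site (chr3:5246031-5246060, plus strand): tggtAATAAAcaagaatgacccaaacagaa
Pcbp2 intron 5 site (chr15:102305176-102305205, plus strand): ataaagttcatgttaagtaattgggctata
Lrp1 intron 13 site (chr10:127026215-127026244, minus strand): cccttcacAATAAAgctctgggcacctcta
Lrp1 intron 34 site (chr10:127007834-127007863, minus strand): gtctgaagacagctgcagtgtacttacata
Nedd4 intron 3 site (chr9:72524965-72524994, plus strand): tttAATAAAgtataaatttctataactgta
Azi2 intron 1 site (chr9:117952106-117952135, plus strand): ttggATTAAAaatttgcctacacggttcaa
Slc30a4 exon 3 site (chr2:122515166-122515195, minus strand): atgaAATAAAcggcgatgtcatgctcatca
Antxr2 intron 14 site (chr5:98369341-98369370, minus strand): ttctcagagAATAAAactacctaaaatttg
Mtpn proximal last-exon site (chr6:35461919-35461948, minus strand): gcaaaaatacagtctattggaatcattgga
Mtpn distal last-exon site (chr6:35459065-35459094, minus strand): acaaatggAATAAActtgaattgtgctata
Paf1 exon 11 site (chr7:29181879-29181908, plus strand): gaagaacaaggccagtaagggctatgagga

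The RNA of each target was lower in its own knockdown, and the RNA of Paf1 was higher in siCdc73 than in siCtrl in both batches. Paf1 stood at 120 and 163 RNA-seq CPM in siCtrl, 22.9 and 31.8 in siPaf1, and 270 and 367 in siCdc73. The direct difference between the knockdowns was a log2 of -3.72 ± 0.25 (SE; edgeR adjusted p = 4.03e-09). Cdc73 stood at 122 and 100 CPM in siCtrl, 111 and 113 in siPaf1, and 14.6 and 19.3 in siCdc73. Its difference was 2.56 ± 0.27 (edgeR adjusted p = 1.37e-06).

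In 3'READS too, within each batch each target had its fewest reads in its own knockdown, at far lower depth. Paf1 had 23 and 43 reads in siPaf1, 189 and 505 in siCdc73 and 130 and 178 in siCtrl. Cdc73 had 59 and 147 reads in siPaf1, 3 and 45 in siCdc73 and 43 and 107 in siCtrl. In each case the depleted gene was left with few reads for a share.

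Both target genes had a mapped end read in their own knockdown alone. Each of these ends lies inside the stretch that the study's methods list as the target of the siRNA used, so it cannot be told apart from an end left by siRNA cutting and is not counted here as poly(A) site choice, although both remain in the totals below. The Paf1 end, which the deposited table places in the 3'-most exon and GENCODE in exon 11 of 14, held 6 of 23 reads in siPaf1 batch 1 and 6 of 43 in batch 2, and 0 in the siCtrl, siCdc73 and siSki8 libraries. These are 26.1% and 13.95% of the gene, with 95% Wilson intervals of 12.5 to 46.5% and 6.56 to 27.3%, while the counts of 0 allow up to 1.59% and 0.594% in siCdc73 (3 counts of the gene's reads in each library). Its edgeR adjusted p was 6.52e-07. The Cdc73 end, in exon 9, held 2 of 3 and 2 of 45 reads in siCdc73 and 0 in the other 5 libraries, with an edgeR adjusted p of 0.0338 that rests on these 4 reads. This call was lost by DESeq2 (adjusted p = 0.0867), with the 4 libraries alone (0.0610) and without each of the 6 libraries in turn (0.0567 to 0.550). Such intervals and limits describe counting error alone, because no molecular identifiers were read.

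Across the 18413 sites, 235 (1.28%) had a higher share in siPaf1 and 245 (1.33%) a higher share in siCdc73, at an edgeR adjusted p under 0.05 with the same direction in both batches. These 480 sites lie in 340 genes, with 228 of the 6117 genes (3.73%) holding a site higher in siPaf1 and 234 (3.83%) a site higher in siCdc73. In 122 genes sites passed in both directions, which follows in part from the measure, since 125 of the 340 genes have exactly 2 sites and the share that leaves 1 site goes to the other. In 10 genes, among them Lrp1, Itgav, Nedd4 and Nup160, upstream sites passed in both directions. A further 21 sites had an adjusted p under 0.05 but no common direction in the batches.

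The balance of calls differed by the place of the site, a difference that was not tested. In introns and internal exons 53 of 3968 sites (1.34%) were higher in siPaf1 and 122 (3.07%) in siCdc73. In the 3'-most exon 182 of 14445 sites (1.26%) were higher in siPaf1 and 123 (0.852%) in siCdc73. Of these, 86 of the 182 and 68 of the 123 lie in genes with exactly 2 kept sites. Upstream and last-exon counts can therefore be partly tied through the shares of a gene. The excess toward siCdc73 at upstream sites held in genes of each depth class, with 38 against 73 sites in genes that average 200 reads or more, and 13 against 29 in genes of 100 to 200. With the 5% minimum taken on pooled reads it was smaller, at 60 against 104 upstream sites. The part of the choice of sites in this excess was not tested.

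The batches agreed poorly over all sites. The sign of the difference was shared in 53.7% of the 18413 sites, and the correlation of the batch 1 and batch 2 log2 differences across sites was 0.224. Over the 2712 sites of genes with at least 200 reads in each of the 4 libraries it was 0.433. Sites of a gene are not independent and the points share libraries, so these values are descriptions. A difference of at least 10 percentage points in both batches was seen with siPaf1 higher at 1165 sites, with siCdc73 higher at 1028 and with opposite directions at 1095. The shares of the 4 libraries did not overlap between the knockdowns at 2912 sites with siPaf1 higher (15.8%) and 2837 with siCdc73 higher (15.4%). With 2 values per knockdown such non-overlap is common in either direction, so at a single site it is a description only.

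The calls depend on pairing the libraries by batch, that is, on the replicate block. With the block 2404 sites had an unadjusted p under 0.05 and 480 were called. With no replicate block edgeR called 0 sites, and 733 of 18413 had an unadjusted p under 0.05. DESeq2, run with the block, called 115 and 125 sites. The batch difference itself was shared between groups, with a correlation across 2524 sites of 0.678 for siPaf1 and siCdc73, 0.709 for siCtrl and siPaf1 and 0.752 for siCtrl and siCdc73.

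Counts also moved with single libraries. Without siCdc73 batch 2 there were 42 sites higher in siPaf1 and 46 in siCdc73. Without siPaf1 batch 2, the library with the testis reads, there were 70 and 59. Without siCdc73 batch 1 there were 160 and 153. In such fits the remaining library of a group is taken to vary like the others. The direction is then read in the remaining batch alone, so the rule for a call is looser than in the main fit. Requiring at least 10 percentage points in both batches left 130 and 129 sites.

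**Figure D1:**
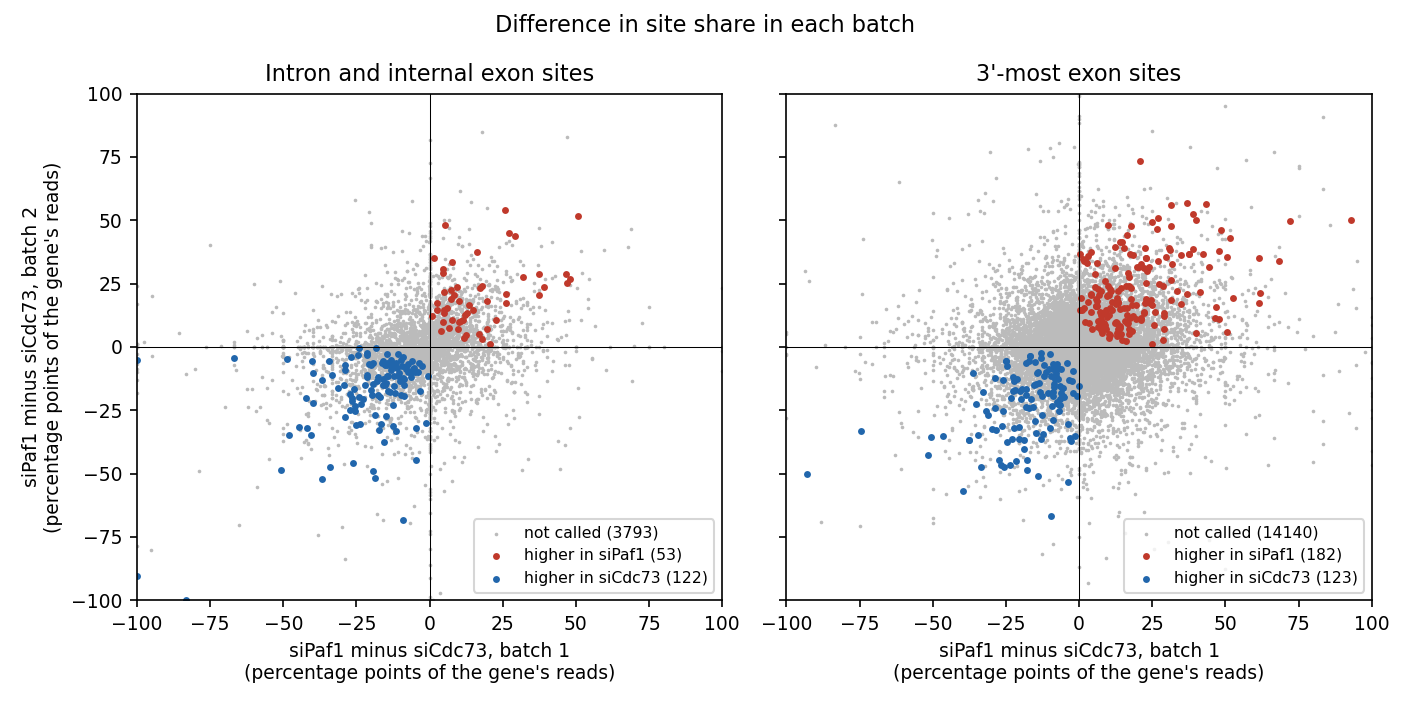
Difference in site share between siPaf1 and siCdc73 (percentage points of the gene's reads) in batch 1 (x axis) and batch 2 (y axis), with intron and internal exon sites on the left and 3'-most exon sites on the right. Grey points are sites that were not called, and the coloured points, 53 and 122 on the left and 182 and 123 on the right, lie in the quadrants where both batches have the same sign.

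Fn1, Zfhx4 and Pcbp2 each have an intron site used more in both knockdowns than in siCtrl, and the knockdowns differ in how much. Fn1 encodes fibronectin, a large extracellular matrix glycoprotein. Fn1 and Zfhx4 sites were called, with the intron share higher in siCdc73, and the Pcbp2 site, with a higher share in siPaf1 in both batches, fell short of the threshold.

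The Fn1 site in intron 26 of 45 held 11.1% and 11.5% of the gene's reads in siPaf1 batches 1 and 2, 36.8% and 28.3% in siCdc73, 0% and 0% in siCtrl and 0.0372% in siSki8. Both siCdc73 values lie above both siPaf1 values, and the siCtrl counts of 0 allow at most 0.196% and 0.1019%. The log2 difference in the ratio to the gene's other reads was -1.91 ± 0.41 (SE, edgeR adjusted p = 4.37e-04). The Fn1 site in intron 13 was read in both knockdowns without a common direction, at 3.57% and 13.8% in siPaf1 and 9.27% and 6.98% in siCdc73 (log2 -0.13 ± 0.42, adjusted p = 0.951), and 0% in both siCtrl libraries.

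The Fn1 site in intron 41 shows how much a call can rest on batch 1. It held 4.00% and 3.44% in siPaf1, 22.4% and 3.76% in siCdc73 and 4.45% and 1.36% in siCtrl. It was called (log2 -1.46 ± 0.42, edgeR adjusted p = 0.0270), but the difference was -18.4 percentage points in batch 1 and -0.314 in batch 2, and without siCdc73 batch 1 the adjusted p was 0.864. It was also lost with the 4 libraries alone (0.0888). The 3'-most exon site of Fn1 held 74.4% and 54.1% in siPaf1, 26.6% and 43.1% in siCdc73, 95.6% and 98.6% in siCtrl and 98.9% in siSki8 (log2 1.81 ± 0.41, adjusted p = 0.00134). Without siPaf1 batch 1 none of the 4 Fn1 sites passed, with an adjusted p of 0.0553 for intron 26, and without siCdc73 batch 1 that value was 0.148. DESeq2 kept the call of intron 26 (adjusted p = 2.80e-04) and ended those of intron 41 (0.288) and the 3'-most exon site (0.152).

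Zfhx4, a large zinc finger and homeodomain protein, had its site in intron 2 of 12 at 78.8% and 78.2% in siPaf1, 96.5% and 97.1% in siCdc73, 50.8% and 47.4% in siCtrl and 33.1% in siSki8. The groups did not overlap and the batches gave nearly the same values within each group. The log2 difference was -3.07 ± 0.47 (SE, edgeR adjusted p = 4.44e-08), and the 3'-most exon site, the only other Zfhx4 site kept, mirrors it at 21.2% and 21.9% in siPaf1 and 3.50% and 2.89% in siCdc73. In reads, the intron site had 335 and 862 in siPaf1 and 1323 and 2992 in siCdc73. The call held without each of the 6 libraries in turn, with adjusted p of at most 0.00312, and by DESeq2 (1.13e-09).

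Pcbp2 encodes a protein that binds C-rich RNA. Its site in intron 5 of 14 held 66.3% and 71.1% in siPaf1, 42.3% and 52.7% in siCdc73, 1.90% and 3.12% in siCtrl and 3.62% in siSki8. Both siPaf1 values lie above both siCdc73 values, by 24.0 and 18.5 percentage points within the batches. The log2 difference was 1.29 ± 0.41 (SE) with an edgeR adjusted p of 0.0542, so it was not called, while DESeq2 gave 0.0205. Over the alternatives the adjusted p ran from this value to 1.00 with no replicate block. Its 3 sites in the 3'-most exon were all lower in siPaf1 than in siCdc73 within each batch and were not called either (adjusted p from 0.124 to 0.282).

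**Figure D2:**
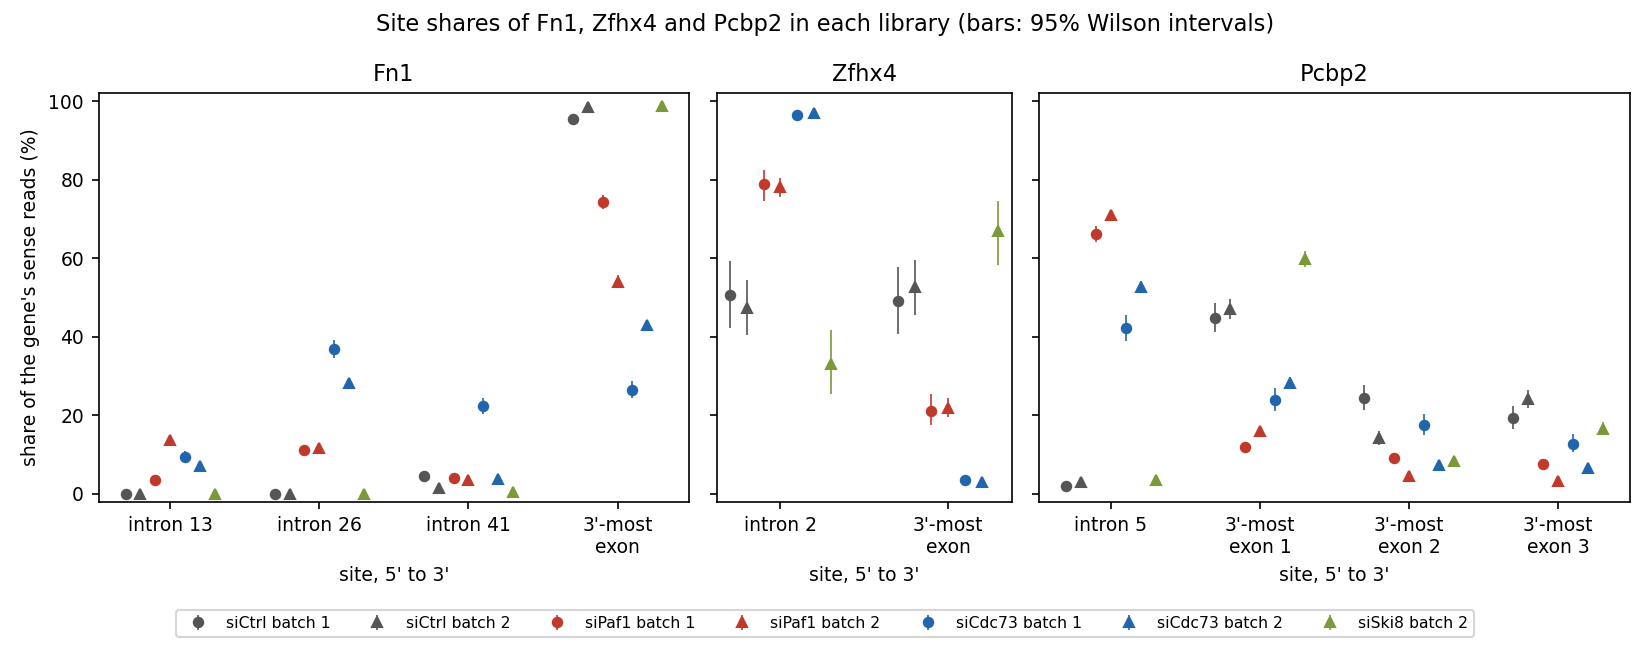
Share of the gene's sense reads (y axis, percent) at each kept site of Fn1, Zfhx4 and Pcbp2, ordered 5' to 3' (x axis), with 1 point per library and 95% Wilson intervals as bars. The intron 26 site of Fn1 is at 0% in both siCtrl libraries and at 28.3% and 36.8% in siCdc73, and the intron 2 site of Zfhx4 is at 78.2% to 78.8% in siPaf1 and above 96% in siCdc73.

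Among upstream sites higher in siPaf1, the smallest p fell on Lrp1, Nedd4, Nup160, Azi2, Dvl3, Lxn and Dcaf10. Lrp1 encodes a large endocytic receptor. Its intron 34 site held 18.2% and 40.2% in siPaf1, 1.93% and 2.78% in siCdc73, 43.7% and 58.8% in siCtrl and 51.5% in siSki8 (log2 4.04 ± 0.49, edgeR adjusted p = 5.54e-12). This site was therefore below siCtrl in both knockdowns and lower by far in siCdc73. The Lrp1 site in intron 13, further upstream, had the reverse pattern, at 56.7% and 32.5% in siPaf1 and 93.6% and 84.8% in siCdc73, against 37.8% and 19.2% in siCtrl (log2 -3.50 ± 0.47, adjusted p = 1.53e-10). In reads, the intron 13 site had 156 and 105 in siPaf1 and 1695 and 1431 in siCdc73, and the intron 34 site 50 and 130 in siPaf1 and 35 and 47 in siCdc73. The drop in share at intron 34 thus came with many more reads at intron 13.

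Nedd4, a HECT-type ubiquitin ligase, had its intron 3 site at 51.003% and 29.1% in siPaf1, 3.18% and 2.21% in siCdc73 and 5.73% and 5.16% in siCtrl (log2 4.55 ± 0.58, edgeR adjusted p = 1.00e-11). Nup160, a nuclear pore component, had its intron 22 site at 43.3% and 24.8% in siPaf1, 4.08% and 1.12% in siCdc73 and 4.66% and 2.08% in siCtrl (log2 4.45 ± 0.78, adjusted p = 5.15e-06). At both sites the siPaf1 shares lay far above the other 5 libraries, with siSki8 at 4.11% for Nedd4 and 2.97% for Nup160. In both genes an upstream site also passed as higher in siCdc73. CDS-APA was called in neither, at log2 1.07 ± 0.67 in Nedd4 (edgeR adjusted p = 0.384) and 1.19 ± 0.78 in Nup160 (edgeR adjusted p = 0.417).

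Azi2, Dvl3 and Dcaf10 have their sites in intron 1. Azi2 encodes an adaptor of the kinase TBK1, and its site held 19 of 157 reads in siPaf1 batch 1 and 36 of 288 in batch 2, that is 12.1% and 12.5%, and 0 in the other 5 libraries (edgeR adjusted p = 3.59e-05). At 80 and 293 reads of the gene, siCdc73 allows up to 3.75% and 1.02%. Dcaf10 had 21.1% and 25.1% in siPaf1, 3.73% and 1.96% in siCdc73 and 0% and 0.929% in siCtrl (log2 3.52 ± 0.69, adjusted p = 8.57e-05). Dvl3, a Wnt signalling adaptor, had 97.9% and 100% in siPaf1 and 72.2% and 45.9% in siCdc73, and its gene total was 243 and 171 reads in siPaf1 against 36 and 74 in siCdc73 and 7 and 18 in siCtrl (adjusted p = 2.30e-05). The Dvl3 share was 42.9% and 11.1% in siCtrl, on these few reads, and 76.0% of 25 reads in siSki8. Lxn, a carboxypeptidase inhibitor, had its intron 4 site at 19.4% and 16.4% in siPaf1, 4.57% and 1.83% in siCdc73 and 6.64% and 5.59% in siCtrl (log2 2.86 ± 0.56, adjusted p = 7.22e-05). Leaving out siPaf1 batch 2 ended the calls of Azi2, Dvl3 and Dcaf10 (adjusted p of 0.203, 0.214 and 0.0953), and leaving out siCdc73 batch 2 ended these and that of Lxn (0.189, 0.0791, 0.318 and 0.139).

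Among upstream sites higher in siCdc73, the smallest p fell on Slc30a4, Sobp, Lrp1 (given above), Antxr2, Odz3, Zfhx4 and Elk3. Slc30a4, a zinc transporter, had a site in exon 3 at 7.60% and 5.03% in siPaf1, 49.6% and 37.0% in siCdc73, 0% and 0.0991% in siCtrl and 0.202% in siSki8 (log2 -3.52 ± 0.46, edgeR adjusted p = 6.40e-11). It is an example of a site nearly absent in siCtrl and read in both knockdowns. Antxr2, an anthrax toxin receptor that binds matrix proteins, had its intron 14 site at 0% and 1.86% in siPaf1, 27.2% and 26.7% in siCdc73 and 2.41% and 3.42% in siCtrl (log2 -4.996 ± 0.71, adjusted p = 3.03e-09). Here siPaf1 did not stand above siCtrl, and the count of 0 in batch 1 allows up to 1.60%.

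Elk3, an ETS family transcription factor, had its intron 3 site at 2.27% and 2.41% in siPaf1, 14.04% and 20.5% in siCdc73 and 0.306% and 0.216% in siCtrl (log2 -3.12 ± 0.49, edgeR adjusted p = 1.22e-07). Sobp had its intron 5 site at 2.09% and 1.32% in siPaf1, 27.1% and 32.0% in siCdc73 and 11.6% and 25.8% in siCtrl (log2 -4.75 ± 0.63, adjusted p = 8.82e-11). Odz3, a teneurin, had its intron 23 site at 0.973% and 3.34% in siPaf1, 27.1% and 49.2% in siCdc73 and 9.80% and 22.9% in siCtrl (log2 -4.96 ± 0.74, adjusted p = 2.20e-08). In Sobp and Odz3 the siPaf1 shares were below siCtrl and the gene totals were higher in siPaf1. Sobp had 383 and 1816 reads in siPaf1, 96 and 150 in siCdc73 and 121 and 97 in siCtrl. Odz3 had 514 and 449 reads in siPaf1, 48 and 128 in siCdc73 and 102 and 83 in siCtrl. A share can thus differ through reads at the other sites of the gene.

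Against siCtrl, most called upstream sites were higher in the knockdown named. Of the 53 sites higher in siPaf1, 45 were above siCtrl in siPaf1 in both batches, 18 were below siCtrl in siCdc73 in both, and 10 did both. Of the 122 higher in siCdc73, 116 were above siCtrl in siCdc73, 22 were below it in siPaf1, and 17 did both. Shares under 5% in both siCtrl libraries were found at 30 of the 53 and 82 of the 122. The choice of sites favours such positions, since the 5% minimum was taken over the 4 knockdown libraries and not over siCtrl. Of all 3968 upstream sites tested, 1584 (39.9%) were above siCtrl in siPaf1 in both batches and 548 (13.8%) below it, while 1798 (45.3%) were above it in siCdc73 and 515 (12.98%) below it, and 1724 (43.4%) were under 5% in both siCtrl libraries. The 2 comparisons with siCtrl share its libraries, so these counts describe positions and carry no test.

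Medians over each set depend on the same choice, and on the calls. The 53 sites had medians of 19.3% and 21.8% in siPaf1, 3.53% and 2.27% in siCdc73, 2.99% and 2.24% in siCtrl and 2.33% in siSki8. The 122 sites had medians of 2.66% and 1.55% in siPaf1, 20.5% and 14.7% in siCdc73, 1.72% and 0.781% in siCtrl and 1.20% in siSki8. Over all upstream sites tested the medians were 9.68% and 8.43% in siPaf1, 14.6% and 9.83% in siCdc73, 3.64% and 3.06% in siCtrl and 3.28% in siSki8. A low share in the other knockdown is part of how each set was chosen.

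**Figure D3:**
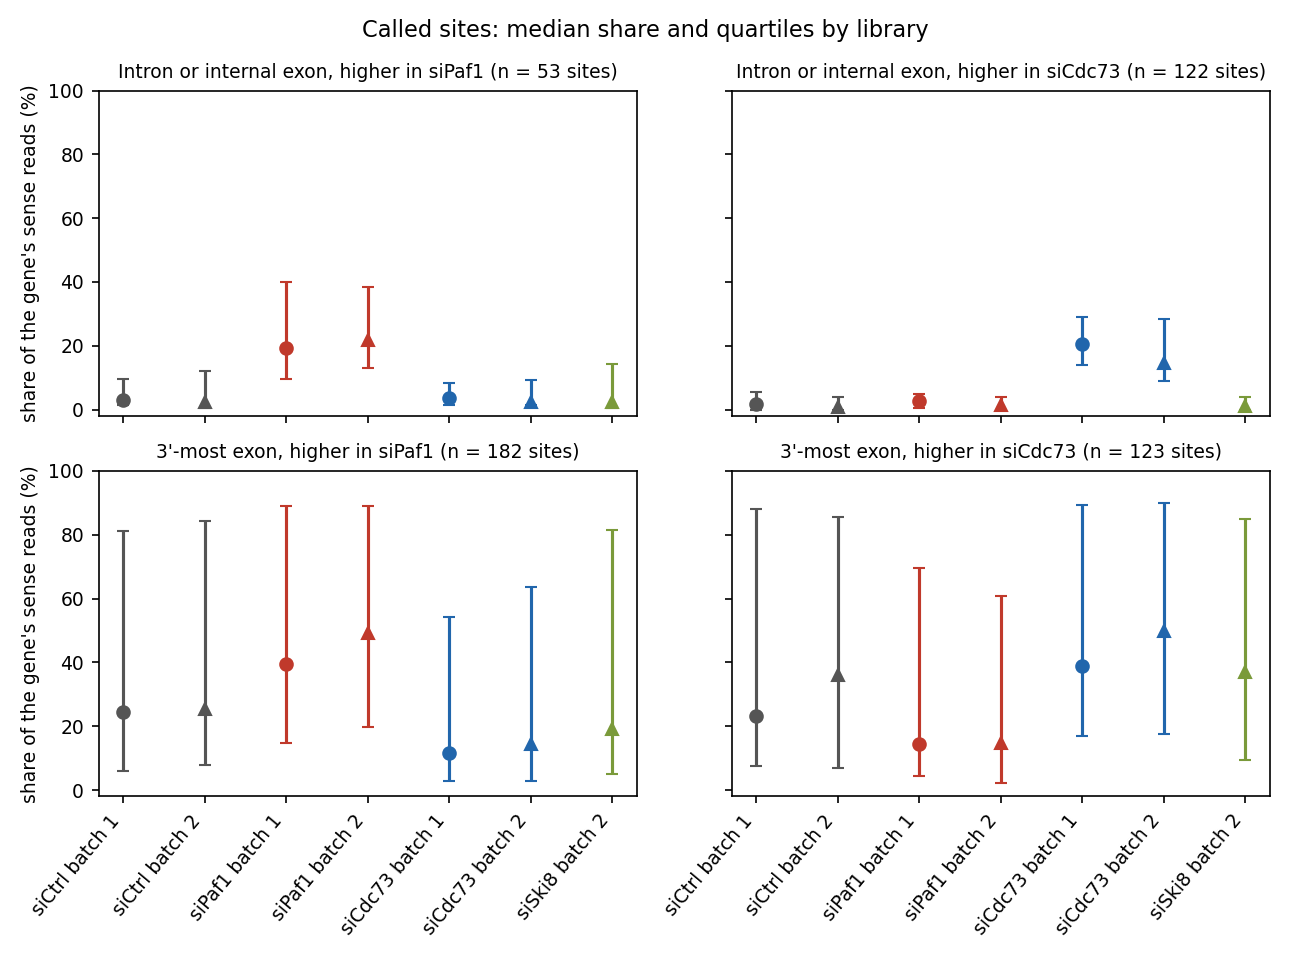
Median share of the gene's sense reads (y axis, percent) at the called sites in each library (x axis), with bars from the lower to the upper quartile over sites. At the 53 upstream sites higher in siPaf1 the siCdc73 medians are 3.53% and 2.27% and the siCtrl medians 2.99% and 2.24%, and at the 122 higher in siCdc73 the siPaf1 medians are 2.66% and 1.55% and the siCtrl medians 1.72% and 0.781%.

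The called intron sites differed in position. GENCODE introns held 49 of the sites higher in siPaf1, 117 of those higher in siCdc73 and 3689 of those tested. With the stretch from transcript start to last splice site cut into 5 equal bins, the bin nearest the start held 42.9% of the sites higher in siPaf1 (21 of 49), 24.8% of those higher in siCdc73 (29 of 117) and 26.1% of all tested. Intron 1 held 42.9%, 15.4% and 18.3% in the same order. The median distance from the transcript start was 8281 bases for sites higher in siPaf1, 27503 for those higher in siCdc73 and 18925 for all tested. No test of these differences was made, and the first set is small.

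**Figure D4:**
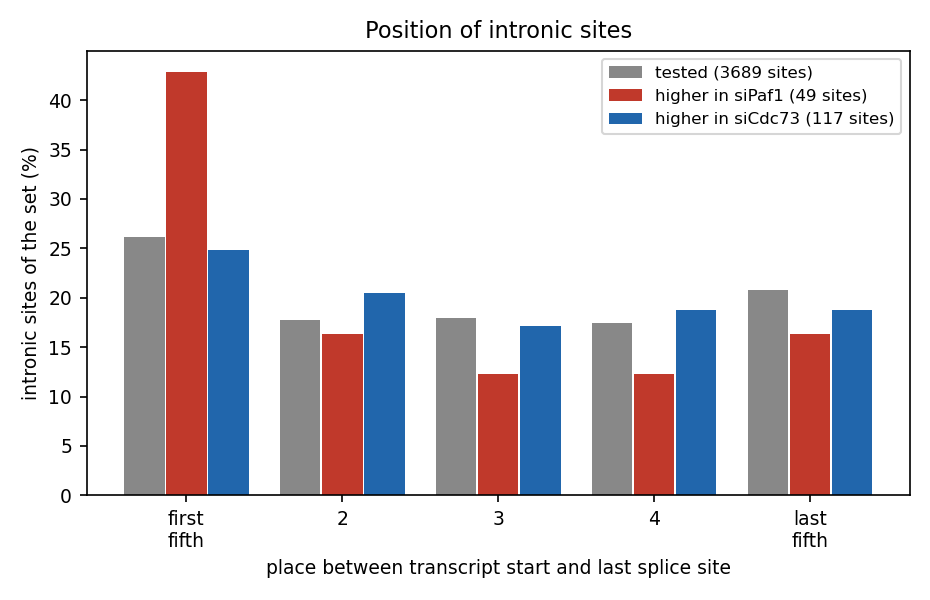
Percent of intron sites (y axis) in each of 5 equal bins between the transcript start and the last splice site (x axis), for the 3689 tested, the 49 higher in siPaf1 and the 117 higher in siCdc73. The bin nearest the start holds 42.9% of the sites higher in siPaf1, 24.8% of those higher in siCdc73 and 26.1% of all tested.

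The AATAAA signal in the 40 bases upstream was as frequent at upstream sites higher in siPaf1 (50.9%) as at all upstream sites tested (50.8%), and stood at 44.3% of those higher in siCdc73. In the 3'-most exon it was found at 68.1% of sites higher in siPaf1, 59.3% of those higher in siCdc73 and 48.9% of all tested. These sets differ in depth. Genes that average 200 reads or more held 139 of the 182 sites, 98 of the 123 and 5656 of the 14445 tested. The signal shares were not matched for depth and were not tested. ATTAAA without AATAAA was found at 18.9%, 17.2% and 17.6% of the upstream sites and at 12.6%, 12.2% and 17.5% of the last-exon sites, in the order siPaf1, siCdc73 and tested. Only the strand of the gene was searched.

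In the 3'-most exon the differences lay on both sides of siCtrl. Of the 182 sites higher in siPaf1, 121 were above siCtrl in siPaf1 and 126 below siCtrl in siCdc73, in both batches. Of the 123 higher in siCdc73, 79 were above siCtrl in siCdc73 and 88 below siCtrl in siPaf1. Over all 14445 sites tested there, 4316 were above and 4229 below siCtrl in siPaf1, and 3890 above and 4481 below it in siCdc73.

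Mtpn, which encodes myotrophin, changed between sites of its last exon and in level. The proximal site held 11.5% and 25.8% in siPaf1, 1.34% and 5.07% in siCdc73, 1.59% and 2.03% in siCtrl and 4.83% in siSki8 (log2 2.93 ± 0.44, edgeR adjusted p = 2.49e-08). The distal site held 85.8% and 57.3% in siPaf1, 98.1% and 91.7% in siCdc73 and 98.05% and 96.1% in siCtrl (log2 -3.06 ± 0.43, adjusted p = 2.70e-09). The distal site had fewer reads in siPaf1, with 434 and 325 there, 2120 and 3693 in siCdc73 and 2660 and 3410 in siCtrl, while the proximal site had 58 and 146 in siPaf1, 29 and 204 in siCdc73 and 43 and 72 in siCtrl. RNA-seq gave 38.5 and 44.3 CPM of Mtpn in siPaf1, 142 and 82.0 in siCdc73 and 133 and 78.7 in siCtrl (log2 -1.57 ± 0.27, adjusted p = 2.83e-04).

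Reep3, an endoplasmic reticulum membrane protein, had a site downstream of the GENCODE end at 39.6% and 63.3% in siPaf1, 8.06% and 7.34% in siCdc73 and 46.0% and 72.6% in siCtrl (log2 3.74 ± 0.49, edgeR adjusted p = 6.76e-11). Of the knockdowns compared, siCdc73 lay further from siCtrl in each batch. The siSki8 library, at 33.4%, was also below both siCtrl libraries. Ankrd52, a regulatory subunit of protein phosphatase 6, had a site at 6.28% and 3.81% in siPaf1, 31.0% and 41.2% in siCdc73 and 10.8% and 6.63% in siCtrl (log2 -3.46 ± 0.51, adjusted p = 1.48e-08). Slc25a1, the mitochondrial citrate carrier, had a site with 3 of 81 and 5 of 773 reads in siPaf1, 26 of 65 and 39 of 351 reads in siCdc73 and 0 of 61 and 0 of 575 in siCtrl (log2 -4.16 ± 0.75, adjusted p = 1.20e-05). Slc5a3, an inositol transporter, and Agps, an enzyme of ether lipid synthesis, also had a last-exon site higher in siCdc73, with adjusted p of 2.23e-05 and 1.70e-05. Slc25a1, Slc5a3 and Agps all lost the call without siPaf1 batch 2 and without siCdc73 batch 2, with adjusted p from 0.0509 to 0.513. The last-exon sites of Antxr2 and Zfhx4 higher in siPaf1 are the counterparts of their intron sites. That of Sobp is so only in part, as it differed by 27.1 and 50.9 percentage points and the intron 5 site by -25.0 and -30.7.

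The table lists the same 2 positions under both Sco2 and Tymp, so the gene they belong to is uncertain. The downstream position held 92.1% and 96.3% of the listed reads in siPaf1, 54.5% and 59.6% in siCdc73 and 78.3% and 84.7% in siCtrl (edgeR adjusted p = 9.52e-12). Of all 480 called sites, 3 of those higher in siPaf1 and 4 of those higher in siCdc73 lie at such shared positions.

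By gene, more ratios were called toward upstream sites in siCdc73 than in siPaf1. CDS-APA, the reads of all kept intron and internal exon sites against those of the kept 3'-most exon sites, was called higher in siPaf1 in 20 of 2327 genes (0.859%) and higher in siCdc73 in 79 (3.39%). The median log2 difference was -0.51, at -0.73 in batch 1 and -0.27 in batch 2. A high share in a single knockdown could bring a site past the 5% minimum. Of the 3968 upstream sites kept, 417 had 0 reads in both siPaf1 libraries and 170 had 0 in both siCdc73 libraries. With the 5% minimum taken on pooled reads the median was -0.28. How much of the lean comes from the choice of sites was not tested. Median upstream shares were 17.6% and 14.7% in siPaf1, 26.7% and 16.9% in siCdc73 and 8.64% and 6.30% in siCtrl. With the reads of these genes pooled the upstream share was 28.4% and 25.4% in siPaf1, 31.8% and 26.95% in siCdc73 and 19.3% and 14.4% in siCtrl. Over all PASS reads, with no choice of sites, the direction was the reverse in both batches, as intron sites took 2.79% and 2.59% in siPaf1, 2.53% and 2.397% in siCdc73 and 2.03% and 1.70% in siCtrl. The lean at the kept sites was thus not seen in the intron share of all reads. Internal exons, left out of that share, took 0.485% and 0.470% in siPaf1 and 0.557% and 0.463% in siCdc73. Adding them keeps the direction in both batches. The share of all reads also takes in genes with 1 site, and the reason for the difference was not tested.

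This median moved with depth. It was -0.89 in the 809 genes with a mean under 50 reads, -0.63 in 513 genes of 50 to 100, -0.22 in 447 genes of 100 to 200 and -0.18 in 558 genes of at least 200, where batch 2 gave -0.03. In that deepest class 15 genes were called higher in siPaf1 and 45 in siCdc73. The median was therefore largest in shallow genes, while most calls lay in deep ones. CDS-APA counts were 3 and 13 without siPaf1 batch 2, 3 and 14 without siCdc73 batch 1, 1 and 9 without siCdc73 batch 2, 17 and 37 without siPaf1 batch 1, and 0 and 0 in edgeR with no replicate block, where 125 genes had an unadjusted p under 0.05. DESeq2, with the block, called 11 and 41.

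3'UTR-APA, the proximal against the distal of the 2 most used sites in the 3'-most exon, was called higher in siPaf1 in 34 of 5000 genes (0.68%) and higher in siCdc73 in 83 (1.66%). The median log2 difference was -0.11, at -0.19 in batch 1 and -0.04 in batch 2. Median proximal shares were 45.8% and 45.5% in siPaf1, 50.0% and 46.2% in siCdc73 and 41.7% and 37.7% in siCtrl. The called pairs lie further apart than most, with medians of 1253 bases in the 34 genes, 2003 in the 83 and 688 in all 5000. The lean toward siCdc73 was small without siPaf1 batch 1, where 78 and 84 genes were called. Removing a control library gave 19 and 49 (siCtrl batch 1) or 19 and 47 (siCtrl batch 2). Counts were 7 and 19 without siPaf1 batch 2, 26 and 50 without siCdc73 batch 1, 5 and 7 without siCdc73 batch 2, and 0 in edgeR with no replicate block, where 146 genes had an unadjusted p under 0.05. DESeq2, with the block, called 15 and 44. Where a siPaf1 or siCdc73 library was left out, the direction was read in the remaining batch alone. Those counts thus follow a looser rule than the 34 and 83.

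**Figure D5:**
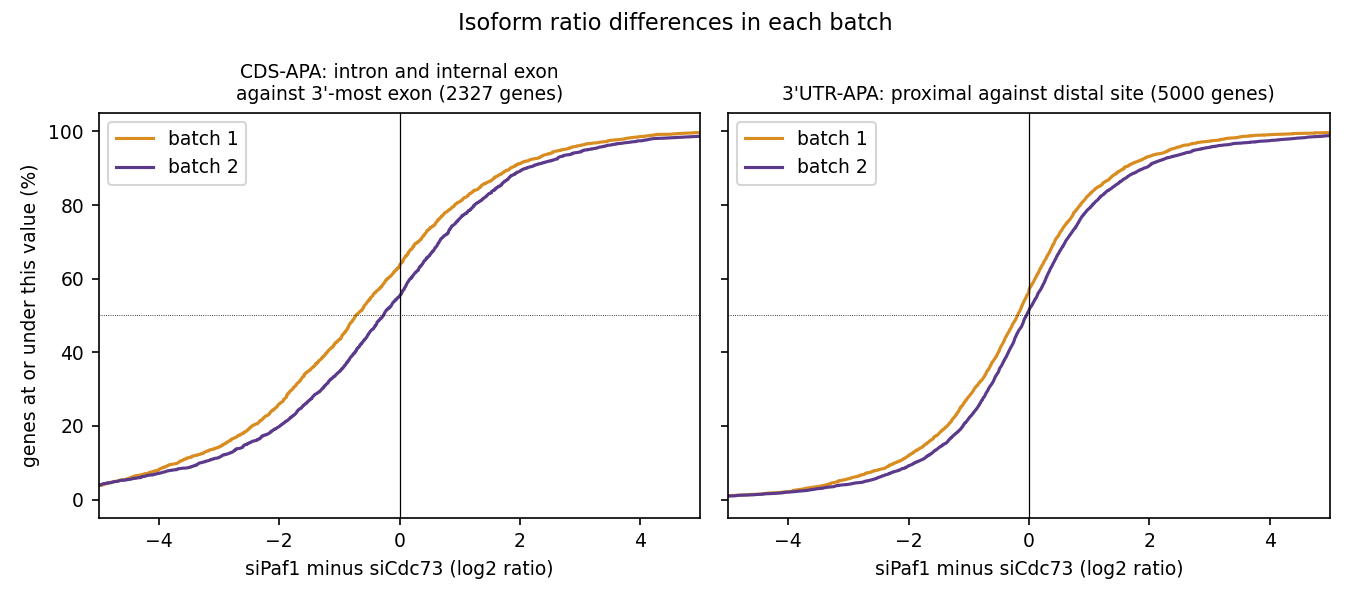
Cumulative percent of genes (y axis) by the log2 difference of the isoform ratio, siPaf1 minus siCdc73 (x axis), in batch 1 and batch 2, for CDS-APA in 2327 genes on the left and 3'UTR-APA in 5000 genes on the right. The curves cross the 50% line at -0.73 and -0.27 for CDS-APA and at -0.19 and -0.04 for 3'UTR-APA, so batch 2 lies nearer to 0.

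RNA-seq, which the choice of sites did not use, called 920 of 6271 genes higher in siPaf1 (14.7%) and 845 higher in siCdc73 (13.5%), counting reads over coding regions. Of the 79 genes with CDS-APA higher in siCdc73, 27 were measured, of which 9 were called higher in siPaf1 and 0 in siCdc73 by edgeR, with a median log2 of 0.33. The 1102 measured genes with a CDS-APA value had 193, 128 and 0.12 for the same quantities. Of the 20 genes with CDS-APA higher in siPaf1, 12 were measured, with 2 higher in siPaf1, 4 higher in siCdc73 and a median log2 of -0.48. In both sets the median thus lay on the side of more coding-region RNA where the upstream share was lower, and the numbers are small.

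Of the named genes with a CDS-APA call, 5 were measured, and in 4 of them the RNA difference lay on that side. Zfhx4, with the larger intron share in siCdc73, stood at 268 and 255 RNA-seq CPM in siPaf1, 199 and 75.6 in siCdc73 and 243 and 89.0 in siCtrl (log2 0.95 ± 0.28, edgeR adjusted p = 0.0167). The differences of Fn1 (log2 0.19 ± 0.20, adjusted p = 0.507), Lrp1 (0.08 ± 0.20, adjusted p = 0.805) and Dcaf10 (-0.49 ± 0.24, adjusted p = 0.128) did not pass, and that of Slc30a4 (-0.21 ± 0.23, adjusted p = 0.531) lay on the other side and did not pass either. Gene totals in 3'READS, which also count intron ends, lay the other way in those 4 genes in both batches. Zfhx4 had 54.4 and 82.3 CPM in siPaf1 and 259 and 215 in siCdc73, and Lrp1 35.2 and 24.1 against 342 and 118. Fn1 had 301 and 232 against 305 and 377, and Dcaf10 26.1 and 39.2 against 25.3 and 28.45. Slc30a4, at 62.3 and 104 against 110 and 156, lay on the side of its RNA-seq difference. Pcbp2, whose CDS-APA was not called, had an RNA-seq difference of 0.45 ± 0.22 (adjusted p = 0.128). With no replicate block edgeR called 0 genes in either direction, with 445 and 395 at an unadjusted p under 0.05, and DESeq2 with the block called 748 and 788.

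Of 80 sites in 26 genes on a list of extracellular matrix genes and their receptors, 4 were higher in siPaf1 and 5 in siCdc73, in Fn1, Itgav, Ltbp2 and Thbs1. Together these are 11.3% of the sites, against 2.61% of all sites, but the 9 calls lie in 4 genes whose shares are tied within each gene, and 3 are in Fn1, a gene named beforehand. DESeq2 called 2 of the 80, against 240 of all 18413. The median log2 difference over the 80 sites was -0.13, against 0.01 over all sites. The median CDS-APA difference in the 14 genes of the list with a value was -0.93, against -0.51 in all 2327 genes. CDS-APA was called in 1 of these 14 genes in each direction. Itgav, an integrin subunit, had its intron 1 site at 7.16% and 9.91% in siPaf1, 0.362% and 2.61% in siCdc73 and 0 of 685 and 0 of 2531 reads in siCtrl (log2 2.53 ± 0.56, edgeR adjusted p = 9.00e-04). Its intron 26 site went the other way, at 3.03% and 0.840% in siPaf1, 12.0% and 4.71% in siCdc73 and 2.34% and 0.0395% in siCtrl (adjusted p = 0.00180). The intron 1 call was lost without siCdc73 batch 1 (adjusted p = 0.0835), and the intron 26 call without siPaf1 batch 1 (0.110) and without siCdc73 batch 2 (0.538).

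Ltbp2, a latent TGF-beta binding protein, had its intron 1 site at 12.6% and 11.03% in siPaf1, 2.59% and 1.00% in siCdc73 and 1.35% and 1.78% in siCtrl (log2 2.77 ± 0.80, edgeR adjusted p = 0.0278). The siSki8 library held 8.46% at this intron site. Thbs1, thrombospondin, differed between sites of its last exon, with the more proximal at 21.8% and 2.81% in siPaf1, 28.0% and 11.4% in siCdc73 and 10.8% and 2.19% in siCtrl (log2 -1.32 ± 0.38, adjusted p = 0.0289). The batches differed more than the knockdowns at this Thbs1 site. By DESeq2 neither Itgav site passed (adjusted p of 0.0750 and 0.192), nor the Ltbp2 intron site (0.142) or the Thbs1 site (0.122). The last-exon site of Ltbp2, called higher in siCdc73, passed by DESeq2 (adjusted p = 0.00847). The Ltbp2 intron call was lost without each library other than siCtrl batch 2 (0.0687 to 0.451), and the Thbs1 call without either siCtrl library, siPaf1 batch 2 or siCdc73 batch 2 (0.130 to 0.785).

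Among 36 sites of cleavage and polyadenylation factors, 1 was higher in siPaf1 and 0 in siCdc73, or 2.78%, with 5 at an unadjusted p under 0.05 (13.9%, against 2404 of 18413 or 13.1% over all sites), 0 called by DESeq2 and a median log2 of -0.02. It is in Fip1l1, a subunit of the cleavage and polyadenylation specificity factor, and held 25.1% and 37.1% in siPaf1, 22.9% and 2.75% in siCdc73, 26.1% and 21.02% in siCtrl and 4.62% in siSki8 (log2 2.21 ± 0.62, edgeR adjusted p = 0.0202). The difference came from batch 2, and by DESeq2 the adjusted p was 0.357. Of 18 sites of Paf1C subunits, 1 passed in each direction, or 11.1% against 2.61% of all sites. Both are the ends inside the siRNA targets given above, and DESeq2 called 1, that of Paf1. The median log2 over these 18 was -0.11.

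The other lists held no site called by edgeR. Of 10 sites of poly(C)-binding proteins, 4 had an unadjusted p under 0.05 and DESeq2 called 1, the Pcbp2 intron site, against 2404 and 240 of 18413 over all sites. All 4 are the kept sites of Pcbp2, a gene named beforehand whose shares are tied to each other, so this is a result on 1 gene and not on the list. Of 51 sites of splicing factors and U1 snRNP, 3 had such a p and DESeq2 called 0 (median log2 -0.04). Of 33 sites of transcription elongation factors it was 1 and 0 (median 0.11), and of 36 sites of mitosis genes 4 and 0 (median 0.04).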

How the data were processed

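The 3'READS data had been aligned by the authors with Bowtie2 (local mode, mm9). They kept unique reads with a mapping quality above 10 and at least 2 non-genomic Ts, and the deposited values are raw counts per poly(A) site. For RNA-seq, the authors deposited raw counts and RPKM values per RefSeq transcript; the counts were tested and the RPKM values were not used. Every library column matched a sample by name (0 unmatched). Library totals ran from 5302728 to 14340927 PASS reads and from 2796693 (siPaf1 batch 2) to 8160386 RNA-seq gene counts.

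Upstream antisense sites were left out of all shares. For each site, edgeR 4.0.16 in R 4.3.3 (quasi-likelihood test) compared its reads with all other sense reads of the gene, siPaf1 minus siCdc73, with a coefficient per library and an isoform by batch term as the replicate block, over the 6 replicated libraries. The siCtrl libraries serve the estimate of spread. P-values were adjusted by Benjamini-Hochberg over all features. A call needed an adjusted p under 0.05 and share differences of the same sign in both batches. With a siPaf1 or siCdc73 library left out, the sign was read in the remaining batch alone. At first the sign was read from log2 ratios with 0.5 added, which gave a direction to sites with 0 reads in both libraries of a batch; this was corrected after the data were seen. RNA-seq used TMM, edgeR's filter and the batch, with 1 transcript per gene. DESeq2 1.42.0 was the alternative, and Python 3.11.15 with pandas 2.3.3, numpy 2.4.6 and matplotlib 3.10.9 made tables and figures. GENCODE placed 18271 of the 18413 sites in 6068 of the 6117 genes.

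The pairing by batch comes from the labels. It was checked by the correlation of the change from batch 1 to batch 2 between groups (0.678 to 0.752 over 2524 sites). The tests were also checked on simulated data.

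Members and lists were chosen with earlier results of these data known. Named genes are Fn1, Zfhx4, Pcbp2, Paf1 and Cdc73, then, for each site class and direction, at most 7 sites with the smallest p among called sites that differ by at least 10 percentage points in both batches in genes with at least 20 reads in each of the 4 libraries, and list members with a called site. Alternatives were no replicate block, the 4 libraries alone, DESeq2, other minimums of reads and share, genes and positions left out, and each library left out in turn.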

Additional observations from a re-analysis of the deposited data

Results flagged for a closer look

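Reads at upstream antisense sites, which entered no comparison, made up 0.174% of PASS reads in siPaf1 batch 1 and 0.203% in batch 2, and 0.225% and 0.205% in siCdc73. The siCtrl libraries held 0.160% and 0.138%, so each siPaf1 and siCdc73 library lay above both. The siSki8 library, at 0.141%, lay between the siCtrl libraries. These shares were noted because they lie outside the sites compared and above siCtrl in siPaf1 and siCdc73, and the difference was not tested.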

How the results depend on the processing

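Counts are given as higher in siPaf1, then higher in siCdc73, beside 235 and 245 for all sites and 53 and 122 for intron and internal exon sites. With no replicate block edgeR called 0 and 0 sites, 0 and 0 of them upstream, and 0 and 0 RNA-seq genes; the same data with the block gave the counts above, and 920 and 845 genes. DESeq2 called 115 and 125 sites, 21 and 55 upstream. A minimum mean of 100 reads gave 131 and 136, with 28 and 65 upstream, over fewer sites. A difference of at least 10 percentage points gave 130 and 129. With each library left out in turn, counts ran from 42 to 246 and from 46 to 243 sites, upstream from 7 to 57 and from 29 to 93, and RNA-seq genes from 273 to 1058 and from 231 to 1148. The lowest values came without siCdc73 batch 2. Upstream sites higher in siCdc73 outnumbered those higher in siPaf1 under every setting that called any and had upstream sites counted. They were not counted separately with direction from log2 ratios or with shared positions left out.

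The median of CDS-APA, -0.51, stayed negative but fell nearer to 0 without siCdc73 batch 1 (-0.28), with 5% of pooled reads (-0.28) and at a minimum mean of 100 reads (-0.23), over fewer genes in the last 2. With each library left out it ran from -0.67 to -0.28. That of 3'UTR-APA ran from -0.23 (without siPaf1 batch 2) to -0.018 (without siPaf1 batch 1). The Fn1 intron 13 site, which was not called, ran from -1.46 to 1.10, turning without siPaf1 batch 1 (1.10) or siCdc73 batch 1 (1.09); fewer samples remain there and the cause was not tested. Of 45 named sites, 40 had a call to lose, since the Fn1 intron 13 site and the Pcbp2 sites had none. With no replicate block all 40 lost it. With DESeq2 9 of the 40 lost it, and the Pcbp2 intron 5 site gained it. Leaving out siCdc73 batch 2 ended 14 calls and siPaf1 batch 2 ended 13.

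Added after seeing the data were the upstream counts, direction from log2 ratios with 0.5 added (242 and 249) and leaving out sites at shared positions (229 and 241). Depth limits shares most in siCdc73 batch 1 and in the target genes. Each group has n = 2 in 1 cell line.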
